A study of Mus musculus with 6 samples.

Results

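The CXCR3 and CXCR6 chemokine axes were followed through 5 genes chosen by symbol: the ligands Cxcl9, Cxcl10 and Cxcl16 and the receptors Cxcr3 and Cxcr6. All 5 were among the 18437 genes of the expression table, and all 5 were among the 13167 genes that passed the filter on low values. The data are bulk RNA-seq of tumours that formed in C57BL/6 mice after cells of 4MOSC1, a murine line of oral squamous cell carcinoma, were placed orthotopically in the tongue. One group received 4MOSC1-LIGHT cells, which overexpress LIGHT, a ligand of the TNF superfamily whose gene is Tnfsf14, and the other received 4MOSC1-con cells. There were 3 LIGHT libraries and 3 control libraries, and both groups share the line, the strain and the injection site. The sources used here do not give the vector of either line, the age of the mice or the time from injection to harvest. The study's title concerns tertiary lymphoid structures, and the comparison asks how the tumours differed when the injected cells overexpressed LIGHT.

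CXCL9 and CXCL10 are small secreted chemokines made by macrophages, dendritic cells, endothelium and epithelium under interferon. Both signal through CXCR3, a G protein-coupled receptor of activated T cells and natural killer cells, and the pair is known for drawing such cells into inflamed tissue and tumours. CXCL16 is made as a membrane protein whose chemokine domain sits on a stalk. It binds CXCR6 on activated and tissue-resident T cells, natural killer T cells and natural killer cells, and proteases can release it in soluble form. In a bulk specimen, fewer cells of a type and less RNA per cell cannot be told apart.

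The promoters of Cxcl9 and Cxcl10 are shown because these neighbouring genes had the largest differences of the 5. Both lie on the minus strand of chromosome 5 (GRCm38), Cxcl9 from 92321347 to 92328079 and Cxcl10 from 92346638 to 92348889, with 18558 bases between them. The sequences are the 250 bases before each start site, 5′ to 3′ on the minus strand, from RefSeq (GRCm38.p6). Cxcl9 covers chr5:92328080-92328329 and Cxcl10 covers chr5:92348890-92349139. Capitals mark matches, on either strand, to the interferon-stimulated response element (GAAA, any 2 bases, then GAAA again), the gamma-activated sequence (TTCNNNGAA) or the NF-kB consensus.
Cxcl9: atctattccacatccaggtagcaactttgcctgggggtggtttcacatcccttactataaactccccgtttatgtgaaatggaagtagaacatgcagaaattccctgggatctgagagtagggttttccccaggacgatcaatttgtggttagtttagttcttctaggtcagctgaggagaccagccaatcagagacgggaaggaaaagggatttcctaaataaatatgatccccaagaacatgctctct
Cxcl10: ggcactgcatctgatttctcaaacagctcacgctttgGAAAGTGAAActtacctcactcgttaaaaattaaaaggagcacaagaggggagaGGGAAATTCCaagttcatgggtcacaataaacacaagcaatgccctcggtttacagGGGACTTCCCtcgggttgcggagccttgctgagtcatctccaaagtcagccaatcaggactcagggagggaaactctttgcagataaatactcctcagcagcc

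The Cxcl10 window held 1 response element, at -213 to -204 from the start site, and 2 NF-kB matches, at -159 to -150 and -103 to -94. None of these overlapped another. The Cxcl9 window held none of the 3 motifs as spelled, and neither did the windows of Cxcr3 and Cxcr6. Across 32851 promoter windows of the same length, 2.98% held the response element, 7.02% the gamma-activated sequence and 3.90% the NF-kB consensus. The matches describe letters in these windows only. Promoters of 4 of the 5 genes were matched by symbol in the table. Cxcl16 was not.

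Levels are given in TPM, which corrects for transcript length and scales each library to 1 total. The number of reads behind a TPM value cannot be recovered, so the sequencing depth is unknown. At 1 TPM or above there were 13183 to 13271 genes per LIGHT library and 12713 to 12838 per control library. Tnfsf14 was at 23.9 to 26.2 TPM in the LIGHT libraries and 0.53 to 0.79 TPM in the control libraries. Differences below are of log2(TPM + 1), LIGHT minus control, from limma fitted to all 13167 genes. These differences understate changes of genes at low TPM. The p-values are two-sided and Benjamini-Hochberg adjusted over all genes, with a call at an adjusted p under 0.05. They measure only the spread between these libraries, since no label ties a library to a separate animal.

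All 5 genes were called higher in LIGHT tumours, where 17.7% of all genes tested were called higher, 5.41% lower and 23.1% in either direction. In all 5 the LIGHT libraries lay above every control library, as they did in 29.6% of all genes tested. The median difference over the 5 was 1.44, against 0.09 over all genes tested. That median of all genes moved to -0.04 with trimmed-mean scaling, and each of the 5 stayed higher under it, with a difference between 0.90 and 2.23. The order of the levels in TPM was Cxcl10, Cxcl9, Cxcl16, Cxcr6 and Cxcr3 in 6 of 6 libraries.

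**Figure D1:**
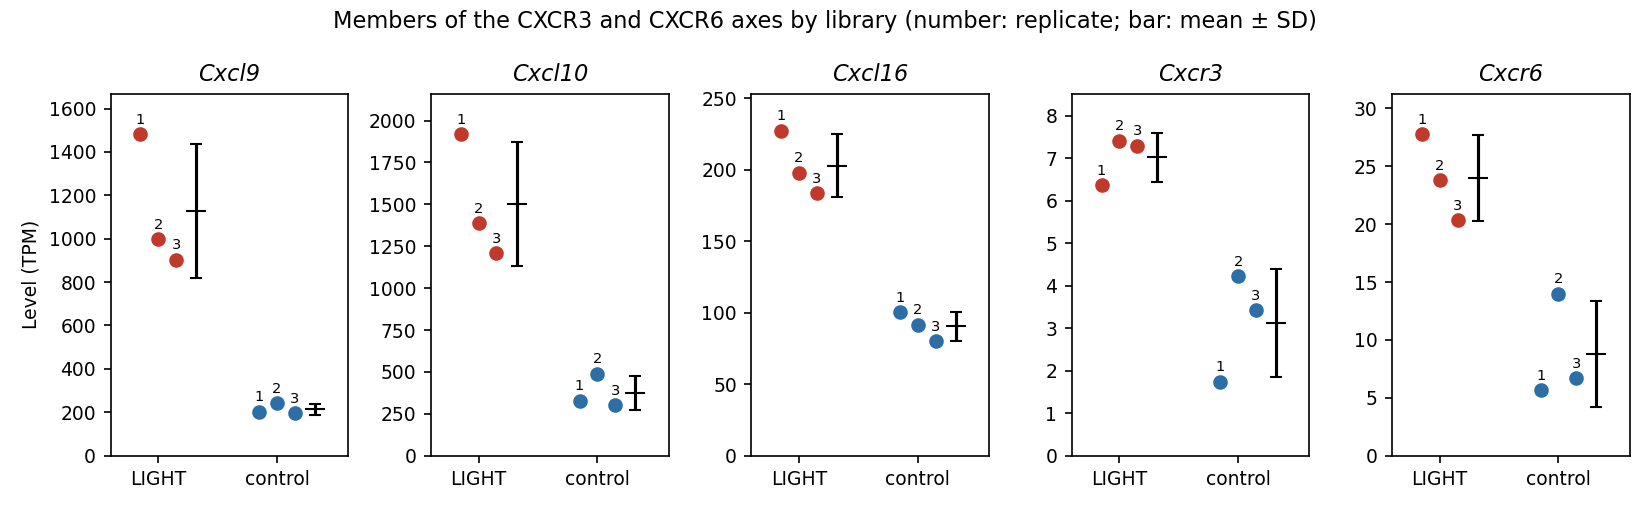
Level in TPM of each of the 5 genes in every library, with the replicate number beside each point and the mean ± SD as a black bar. In each panel the 3 LIGHT libraries sit above the 3 control libraries, with the narrowest gap in the receptors, where control replicate 2 was at 4.22 TPM for Cxcr3 and 14.0 TPM for Cxcr6.

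Cxcl9, the CXCR3 ligand induced chiefly by interferon gamma, was at 1481, 999 and 903 TPM in LIGHT replicates 1, 2 and 3, against 203, 242 and 196 TPM in control replicates 1, 2 and 3. LIGHT replicate 1 was the highest, and the lowest LIGHT library was still above the highest control library. The means were 1128 ± 309.6 TPM in LIGHT tumours and 213 ± 25.2 TPM in control tumours (SD, n = 3 each), a ratio of 5.28. The log2 difference was 2.37 (SE 0.18, limma adjusted p = 0.000658). Among the 13167 genes tested, Cxcl9 ranked 19 by the size of its rise.

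Cxcl10, the other CXCR3 ligand, answers to interferons and to NF-kB. Its level was 1919, 1386 and 1208 TPM in LIGHT replicates 1, 2 and 3, against 328, 490.1 and 302 TPM in control replicates 1, 2 and 3. The means were 1505 ± 369.9 TPM in LIGHT tumours and 373 ± 102 TPM in control tumours (SD, n = 3 each), a ratio of 4.03. Control replicate 2 was the highest control library for both ligands. The log2 difference was 2.01 (SE 0.22, limma adjusted p = 0.0020), which ranked 32 among all genes tested.

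The level of Cxcl9 was 0.772, 0.721 and 0.748 times that of Cxcl10 in LIGHT replicates 1, 2 and 3, against 0.618, 0.494 and 0.647 times in control replicates 1, 2 and 3. Cxcl9 thus stood closer to Cxcl10 in every LIGHT library than in any control library. On the log2(TPM + 1) scale Cxcl9 minus Cxcl10 was -0.42 ± 0.05 in LIGHT tumours and -0.78 ± 0.21 in control tumours (SD, n = 3 each), a change of 0.36. An exact two-sided permutation test gave p = 0.1, the smallest that 20 assignments allow, and 0.15 after adjustment over 6 such within-library differences. None of these 6 tests could reach 0.05.

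The third CXCR3 ligand of mammals, Cxcl11, lies beside this pair and is annotated by RefSeq as a transcribed pseudogene in the C57BL/6J reference. It was not analysed here. Art3, an ADP-ribosyltransferase gene on the opposite strand, spans Cxcl10, and its exons cover 133 bases (5.91%) of the exons of Cxcl10. Strand-specific counting is not stated in the sources used here, so reads from that stretch cannot be assigned to either gene. Art3 was at 17.9 ± 3.37 TPM in LIGHT tumours and 12.0 ± 4.07 TPM in control tumours (SD, n = 3 each), its groups overlapped, and it was not called (limma adjusted p = 0.102). It was called without control replicate 1 (limma adjusted p = 0.0174). The flanking genes Sdad1 and Nup54, of ribosome assembly and the nuclear pore, differed by -0.28 and -0.22 on the log2 scale and were not called (limma adjusted p = 0.168 and 0.217). Sdad1 was called lower without LIGHT replicate 1, and both were called lower with trimmed-mean scaling.

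Cxcr3, the receptor of both ligands, was the lowest of the 5 genes. It was at 6.37, 7.42 and 7.30 TPM in LIGHT replicates 1, 2 and 3, against 1.74, 4.22 and 3.42 TPM in control replicates 1, 2 and 3. LIGHT replicate 1, the highest library for both ligands, was the lowest LIGHT library for the receptor. The means were 7.03 ± 0.57 TPM in LIGHT tumours and 3.13 ± 1.27 TPM in control tumours (SD, n = 3 each), and the log2 difference was 1.01 (SE 0.23, limma adjusted p = 0.0184). The call was lost without LIGHT replicate 2 (limma adjusted p = 0.0554) and without LIGHT replicate 3 (limma adjusted p = 0.0590). In the genome Cxcr3 occupies the X chromosome from 101731535 to 101734269, minus strand (GRCm38), and no annotated gene overlaps it. Its neighbour Ogt, which encodes the O-GlcNAc transferase and lies 47183 bases away, was called higher (log2 difference 0.50, limma adjusted p = 0.00972), and that call was lost with either the muscle or the haemoglobin covariate (limma adjusted p = 0.106 and 0.0549).

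Cxcl16, the membrane-bound ligand of CXCR6, was at 227, 198 and 184 TPM in LIGHT replicates 1, 2 and 3, against 100.3, 91.5 and 80.1 TPM in control replicates 1, 2 and 3. The groups were far apart relative to their spread, at 203 ± 22.2 TPM in LIGHT tumours and 90.6 ± 10.2 TPM in control tumours (SD, n = 3 each). The log2 difference was 1.15 (SE 0.11, limma adjusted p = 0.00141), the smallest SE of the 5 genes. Unlike the other 4 genes, Cxcl16 was not highest among control libraries in replicate 2.

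Cxcl16 lies on chromosome 11 from 70453983 to 70459984, minus strand (GRCm38). Zmynd15, a zinc finger gene with a role in spermatogenesis, starts inside it on the opposite strand, and its exons cover 552 bases (18.3%) of the exons of Cxcl16. Zmynd15 was at 14.8, 13.4 and 12.0 TPM in LIGHT replicates 1, 2 and 3, against 3.92, 3.87 and 4.23 TPM in control replicates 1, 2 and 3, and was called higher (log2 difference 1.52, limma adjusted p = 0.000514). Without stated strand, reads from the shared stretch cannot be assigned, and its part in either value was not tested. Med11, a Mediator subunit gene 255 bases from the other end of Cxcl16, was at 50.2 ± 3.46 TPM in LIGHT tumours and 42.9 ± 2.74 TPM in control tumours (SD, n = 3 each) and was not called (limma adjusted p = 0.117). On the other side, 45259 bases away, Tm4sf5, a tetraspanin-like membrane protein gene, was called higher (log2 difference 1.43, limma adjusted p = 0.00380), but it was under 1 TPM in every control library, so the filter fixed its direction.

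Cxcr6, the receptor of CXCL16, was at 27.8, 23.8 and 20.4 TPM in LIGHT replicates 1, 2 and 3, against 5.64, 14.0 and 6.67 TPM in control replicates 1, 2 and 3. Control replicate 2 stood between the other control libraries and the LIGHT libraries. The means were 24.0 ± 3.72 TPM in LIGHT tumours and 8.77 ± 4.55 TPM in control tumours (SD, n = 3 each), and the log2 difference was 1.44 (SE 0.29, limma adjusted p = 0.0126). Without control replicate 2 the difference was 1.80 (limma adjusted p = 0.00205). In the genome Cxcr6 occupies chromosome 9 from 123806475 to 123811760, plus strand (GRCm38), inside an intron of Fyco1 on the other strand, with 0 exonic bases shared. Fyco1, which encodes an adaptor of vesicle transport, differed by 0.31 (limma adjusted p = 0.0492), and that call was lost in 13 of 17 other settings.

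The TPM of Cxcr6 was 4.36, 3.21 and 2.79 times that of Cxcr3 in LIGHT replicates 1, 2 and 3, against 3.24, 3.32 and 1.95 times in control replicates 1, 2 and 3. The groups overlapped in this ratio. Cxcr3 minus Cxcr6 on the log2(TPM + 1) scale was -1.63 ± 0.31 in LIGHT tumours and -1.20 ± 0.37 in control tumours (SD, n = 3 each; exact two-sided permutation p = 0.2, adjusted 0.24).

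Both receptors were set against the CD3 genes Cd3d, Cd3e and Cd3g, which encode invariant chains of the T cell receptor complex. These were called higher in 3 of 3 cases (1 of 3 with haemoglobin as a covariate), where 17.7% of all genes tested were. The summed TPM of the CD3 genes was 128, 110 and 101 in LIGHT replicates 1, 2 and 3, against 26.3, 62.2 and 27.6 in control replicates 1, 2 and 3, so control replicate 2 was again the highest control library. Cxcr6 minus the mean of the CD3 genes, on the log2(TPM + 1) scale, was -0.36 ± 0.12 in LIGHT tumours and -0.25 ± 0.11 in control tumours (SD, n = 3 each), and the groups overlapped (exact two-sided permutation p = 0.3, adjusted 0.3). Cxcr3 minus the CD3 mean was -1.99 ± 0.19 in LIGHT tumours and -1.45 ± 0.45 in control tumours (SD, n = 3 each; exact two-sided permutation p = 0.1, adjusted 0.15). Cxcr3 was lower relative to the CD3 genes in every LIGHT library than in any control library, with a change of -0.54 that was -0.29 without control replicate 3. With a pseudocount of 0.1 the change was -0.43 and p = 0.3 (exact permutation).

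Cxcl9 and Cxcl16 were likewise set against the mean of 9 macrophage markers. Cxcl9 minus that mean, on the log2(TPM + 1) scale, was 4.85 ± 0.43 in LIGHT tumours and 3.02 ± 0.27 in control tumours (SD, n = 3 each), a change of 1.83. Cxcl16 minus the macrophage mean was 2.41 ± 0.24 in LIGHT tumours and 1.79 ± 0.26 in control tumours (SD, n = 3 each), a change of 0.62. Both differences were higher in every LIGHT library than in any control library (exact two-sided permutation p = 0.1 for each, adjusted 0.15).

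**Figure D2:**
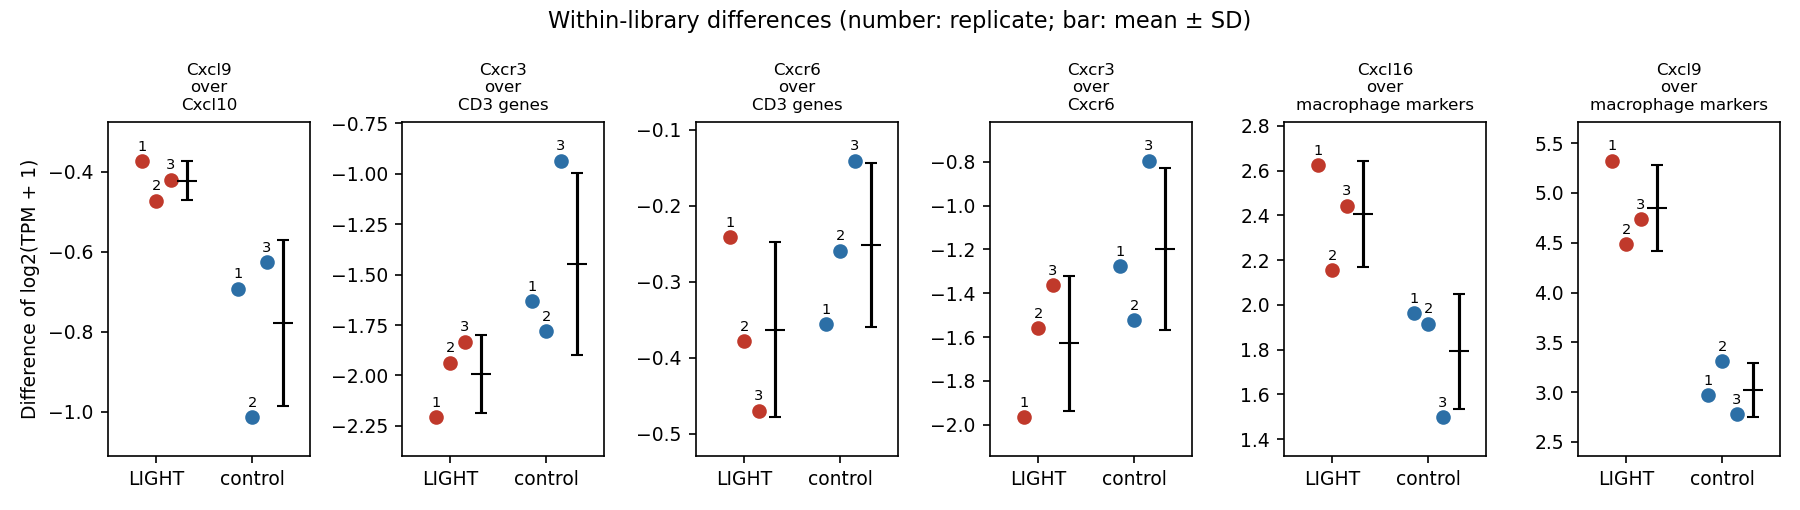
Within-library differences of log2(TPM + 1) for the 6 pairs tested, one point per library with its replicate number and the mean ± SD as a black bar. LIGHT and control points are apart for Cxcl9 over Cxcl10, for Cxcr3 over the CD3 genes and for Cxcl9 and Cxcl16 over macrophage markers. They overlap for Cxcr6 over the CD3 genes and for Cxcr3 over Cxcr6.

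Among 14 CXC chemokines listed, Cxcl9, Cxcl10 and Cxcl16 together made up 90.4%, 81.4% and 80.7% of the summed TPM in LIGHT replicates 1, 2 and 3, against 34.5%, 40.2% and 32.4% in control replicates 1, 2 and 3. The share of Cxcl16 alone was higher in every LIGHT library than in any control library, but the gap was small beside that of the 3 together. It was 5.66%, 6.23% and 6.45% in LIGHT replicates 1, 2 and 3, against 5.49%, 4.47% and 4.49% in control replicates 1, 2 and 3. The remaining 11 summed to 386 to 591 TPM in LIGHT libraries and 1197 to 1225 TPM in control libraries. Of these 11, 9 were tested, with 2 called higher and 2 lower and a median log2 difference of -0.50, against 0.09 over all genes. Of all genes tested, 17.7% were called higher and 5.41% lower. The neutrophil attractant Ppbp was at 190, 284 and 171 TPM in LIGHT replicates 1, 2 and 3, against 743, 824 and 930 TPM in control replicates 1, 2 and 3 (log2 difference -1.98, limma adjusted p = 0.00116). Cxcl3, another ligand of CXCR2, was at 38.6 ± 11.7 TPM in LIGHT tumours and 73.4 ± 16.8 TPM in control tumours (SD, n = 3 each; limma adjusted p = 0.0292). Its call was lost without LIGHT replicate 1 or 2 or control replicate 1 or 2 (limma adjusted p from 0.0630 to 0.0855). The 2 genes called higher were the mucosal chemokine Cxcl17 and Cxcl12, a homeostatic ligand of CXCR4 named after its value was seen. Their number fell to 0 without LIGHT replicate 2 or 3 and after either rescaling.

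**Figure D3:**
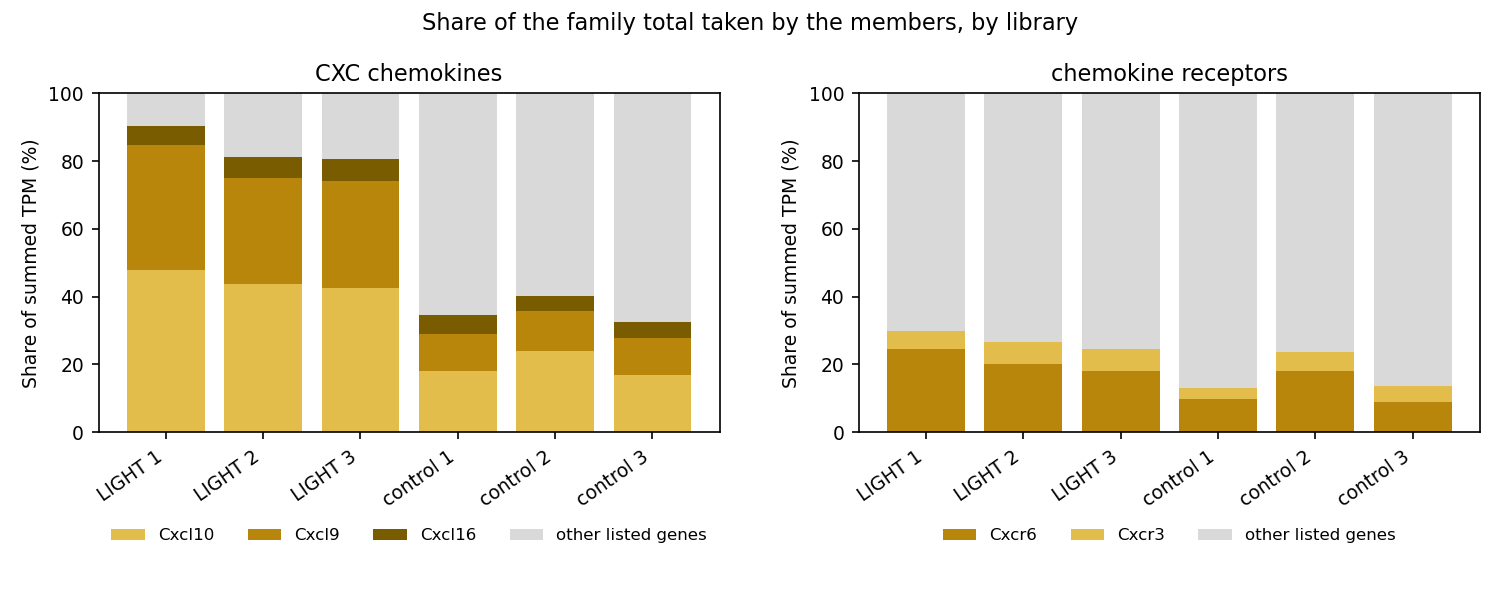
Share of the summed TPM taken by the ligands among 14 CXC chemokines and by the receptors among 21 chemokine receptors, one stacked bar per library. The ligands fill 80.7% to 90.4% of the bars of LIGHT libraries and 32.4% to 40.2% of those of control libraries, while the receptor shares lie closer together.

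Of 21 chemokine receptors, Cxcr3 and Cxcr6 together held 30.0%, 26.5% and 24.4% of the summed TPM in LIGHT replicates 1, 2 and 3, against 13.0%, 23.6% and 13.6% in control replicates 1, 2 and 3. The highest control share was just under the lowest LIGHT share. Of the other 19 receptors 10 were tested, and 6 of them were called higher, where 17.7% of all genes tested were. Of the 10, 0 were called lower (0 lower also at an unadjusted limma p under 0.05). Their median log2 difference was 0.64, against 0.09 over all genes tested. The count called higher was 3 without LIGHT replicate 3, control replicate 1 or control replicate 3. Ccr8, a receptor of regulatory T cells, was at 5.89 ± 0.19 TPM in LIGHT tumours and 2.18 ± 0.48 TPM in control tumours (SD, n = 3 each; log2 difference 1.12, limma adjusted p = 0.00225). By their means, Cxcr6 was the most abundant of the 21 receptors in LIGHT tumours.

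**Figure D4:**
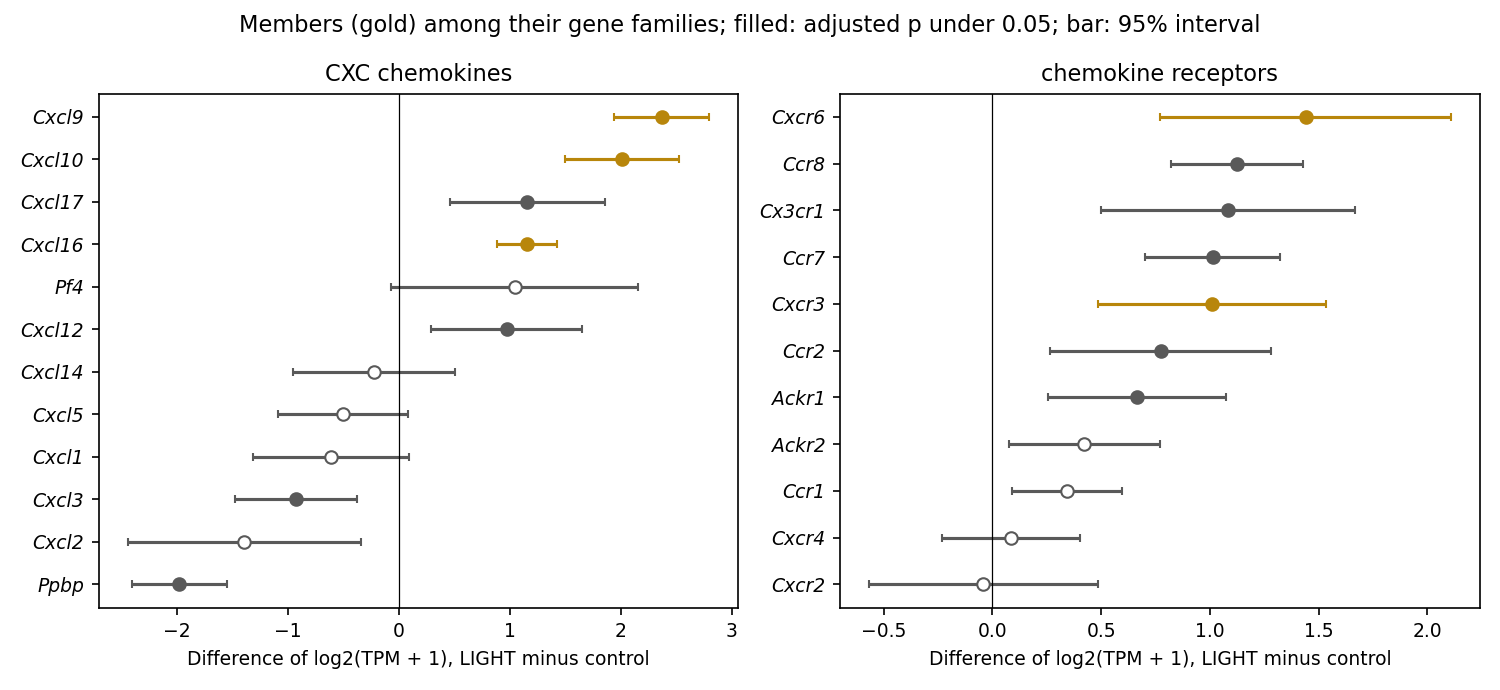
Difference of log2(TPM + 1), LIGHT minus control, with its 95% interval for 12 tested CXC chemokines and 11 of the 12 tested chemokine receptors. Cxcl9 and Cxcl10 lie at the high end of the chemokines at 2.37 and 2.01 and Ppbp at the low end at -1.98, and Cxcr6 leads the receptors at 1.44.

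Of 7 genes listed as partners of the axes, among them enzymes that cut the ligands, 6 were in the table and all 6 were tested, with 1 called higher and 0 lower (0 lower also at an unadjusted limma p under 0.05), where 17.7% of all genes tested were called higher. That gene was Dpp4, the peptidase that trims CXCL9 and CXCL10, at 2.60 ± 0.52 TPM in LIGHT tumours and 0.85 ± 0.11 TPM in control tumours (SD, n = 3 each; log2 difference 0.95, limma adjusted p = 0.00489). It was under 1 TPM in every control library, so the filter fixed its direction, and it missed the filter whenever 1 LIGHT library was left out.

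The sheddases of CXCL16 are encoded by Adam10 and Adam17. Adam10 was at 44.3 ± 7.54 TPM in LIGHT tumours and 47.4 ± 6.80 TPM in control tumours (SD, n = 3 each), a log2 difference of -0.10 with a 95% interval of -0.44 to 0.24. Adam17 was at 25.6 ± 3.58 TPM in LIGHT tumours and 22.2 ± 2.22 TPM in control tumours (SD, n = 3 each), a difference of 0.20 with an interval of -0.09 to 0.48. Neither was called (limma adjusted p = 0.667 and 0.293). Furin, the convertase that matures ADAM proteases, differed by 0.15 (interval -0.19 to 0.49). Ackr3, an atypical receptor of CXCL11 and CXCL12, differed by 0.43 (interval 0.01 to 0.85, limma adjusted p = 0.128). The glycolytic enzyme gene Gpi1, which was in the list although it is not a known partner of these axes, differed by 0.25 (limma adjusted p = 0.0530, and called without LIGHT replicate 1).

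In a list of interferon gamma genes, 10 of 13 were called higher, where 17.7% of all genes tested were. The list includes targets of interferon gamma such as Ciita and Irf1, and its link to Cxcl9 and Cxcl10 was not tested. The median difference was 0.68, against 0.09 over all genes tested. The count called higher in this list was 4 without control replicate 3. Ifng itself was at 21.5, 14.4 and 11.5 TPM in LIGHT replicates 1, 2 and 3, against 3.37, 8.47 and 4.46 TPM in control replicates 1, 2 and 3 (log2 difference 1.42, limma adjusted p = 0.0170). Like both ligands, it was highest in LIGHT replicate 1 and, among control libraries, in replicate 2. The call of Ifng was lost without control replicate 3 (limma adjusted p = 0.0588). Ciita, the interferon-responsive master regulator of MHC class II, differed by 1.53 (limma adjusted p = 0.00693), and the receptor chains Ifngr1 and Ifngr2 by 0.64 and 0.46 (limma adjusted p = 0.00499 and 0.00981). The target Irf1 was at 351 ± 58.4 TPM in LIGHT tumours and 219 ± 43.4 TPM in control tumours (SD, n = 3 each; limma adjusted p = 0.0236). The call of Irf1 was lost without LIGHT replicate 1 or 2 or control replicate 1 or 3, and after either rescaling.

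In a list of chemokine receptor signalling genes, 12 of 16 were called higher, where 17.7% of all genes tested were. The median difference was 0.83, against 0.09 over all genes tested. Whether signalling through CXCR3 or CXCR6 differed was not tested. Was, which couples receptors to actin, was at 6.73 ± 0.46 TPM in LIGHT tumours and 2.96 ± 0.59 TPM in control tumours (SD, n = 3 each; log2 difference 0.98, limma adjusted p = 0.00359). Itgb2, the beta chain of leukocyte integrins, and Plcb2, a phospholipase of G protein signalling, differed by 0.92 and 0.84 (limma adjusted p = 0.00410 and 0.00552).

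The lymphocyte lists are given beside the receptors, but which cells carried Cxcr3 or Cxcr6 was not tested. Over all genes tested 17.7% were called higher and 5.41% lower, with a median difference of 0.09. Of 12 genes of the type 1 lymphocyte programme 9 were called higher, with a median difference of 1.04. They include Tbx21, the transcription factor that drives Cxcr3, at 4.73 ± 0.30 TPM in LIGHT tumours and 1.70 ± 0.41 TPM in control tumours (SD, n = 3 each; log2 difference 1.10, limma adjusted p = 0.00278). Il18r1 and Runx3 differed by 1.38 and 1.04 (limma adjusted p = 0.00206 and 0.00210). Of 7 tested tissue residency genes 4 were called higher and 1 lower. Itgae, the integrin that binds E-cadherin, was at 4.61 ± 1.13 TPM in LIGHT tumours and 1.09 ± 0.47 TPM in control tumours (SD, n = 3 each; log2 difference 1.43, limma adjusted p = 0.00488). Cd69 differed by 1.14, while Prdm1, a repressor also expressed by keratinocytes and plasma cells, fell by 0.82 (limma adjusted p = 0.00442 and 0.00225). Of 7 genes of circulating lymphocytes 4 were called higher, among them Ccr7 and Il7r (differences 1.01 and 0.95, limma adjusted p = 0.00319 and 0.00388), and 2 without LIGHT replicate 2 or 3 or control replicate 2.

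The marker counts below stand beside 17.7% called higher over all genes tested. Of 14 tested T cell markers 13 were called higher (median difference 1.29). The T cell markers summed to 284 to 342 TPM in LIGHT libraries and 76.0 to 183 TPM in control libraries. Of 7 natural killer cell markers 5 were tested and called higher, and the 7 summed to 278 to 410.3 TPM in LIGHT libraries and 55.8 to 176 TPM in control libraries. Klrb1c and Klri2 were not tested. In LIGHT tumours Ncr1 and Klre1 were at 2.08 ± 0.12 and 3.47 ± 0.79 TPM (SD, n = 3), a small part of that sum. One of the 5, Ncr1, was under 1 TPM in every control library, so the filter fixed its direction. The count was 3 without control replicate 3. Of 9 macrophage markers 4 were called higher, and the median difference over the 9 was 0.42. The 9 summed to 967 to 1334 TPM in LIGHT libraries and 609 to 703 TPM in control libraries. Those called were Csf1r, C1qa, C1qb and C1qc. The complement genes C1qa, C1qb and C1qc differed by 0.93, 0.90 and 0.90 (limma adjusted p = 0.00448, 0.00516 and 0.00405). Of 9 dendritic cell markers 4 were tested, and Flt3, Zbtb46, Xcr1, Clec9a and Cd209a missed the filter. Of the 4, 2 were called higher, Ccl22 and Itgax (differences 2.25 and 1.01, limma adjusted p = 0.000283 and 0.00197). Batf3 differed by 0.65, its groups overlapped, and it was not called (limma adjusted p = 0.157). It was called without LIGHT replicate 1. Of 7 B cell markers 5 stayed under 1 TPM in every library, and the 1 tested, Cd22, reached 1 TPM in the LIGHT libraries alone, so the filter fixed its direction. The part of these markers in the differences of Cxcl9, Cxcl10, Cxcl16, Cxcr3 and Cxcr6 was not tested.

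Other tissue in the specimens also varied. Of 8 endothelial markers 1, Vwf, was called higher (0 without LIGHT replicate 3), where 17.7% of all genes tested were called higher. No fibroblast marker of 8, keratinocyte or tumour cell marker of 10, skeletal muscle marker of 12 or haemoglobin gene of 4 tested was called by limma. At an unadjusted limma p under 0.05, 1 fibroblast marker was higher, 1 keratinocyte or tumour cell marker was higher and 2 were lower, 6 skeletal muscle markers were higher, and 0 haemoglobin genes differed. Without control replicate 1, 6 skeletal muscle and 2 keratinocyte or tumour cell markers were called higher. Without LIGHT replicate 1, 3 skeletal muscle markers and 4 haemoglobin genes were called higher and 1 keratinocyte or tumour cell marker lower. The fibroblast marker Dcn was called higher without LIGHT replicate 1 (limma adjusted p = 0.0280) and Fap without control replicate 2 (limma adjusted p = 0.0419). With trimmed-mean scaling Krt14 and Trp63 were called lower (limma adjusted p = 0.0424 and 0.0273). The keratinocyte and tumour cell markers summed to 12401 to 16306 TPM in LIGHT libraries and 16413 to 19135 TPM in control libraries, so markers of the labelled tissue were present in every library. Skeletal muscle markers summed to 4295 to 7218 TPM in LIGHT libraries and 2844 to 4952 TPM in control libraries. The haemoglobin sum was 119, 2086 and 896 TPM in LIGHT replicates 1, 2 and 3, against 70.0, 453 and 86.8 TPM in control replicates 1, 2 and 3. With the haemoglobin mean as a covariate the difference was 0.76 for Cxcr3 and 1.24 for Cxcr6, and neither was called (limma adjusted p = 0.104 and 0.0798), while 3 T cell markers and 1 natural killer cell marker were called higher. That covariate also left 6 genes called higher in the receptor signalling list, 5 in the type 1 programme and 4 in the interferon gamma list. With the skeletal muscle covariate 4 interferon gamma genes, 2 residency genes and 0 macrophage markers were called higher. With that covariate the difference was 1.36 for Cxcr3 and 1.88 for Cxcr6, and both were called (limma adjusted p = 0.03855 and 0.03395). Cxcl9, Cxcl10 and Cxcl16 remained called with either covariate.

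The genes with the most similar pattern to each of the 5 were ranked by Euclidean distance between log2(TPM + 1) profiles centred on their mean over the 6 libraries, among 12753 genes. Nearest to Cxcl9 were the interferon-induced GTPase gene Gbp10, Apol6 and Lurap1l, at distances of 0.42, 0.49 and 0.50. Gbp10 was also nearest to Cxcl10, at 0.32, followed by Il12rb1, an interleukin-12 receptor chain, and Hoxd3. Cxcl9 and Cxcl10 lay 0.53 apart. Nearest to Cxcr3 were Vtcn1, an inhibitory B7 family gene, and the leukocyte signalling genes Arhgap9 and Apbb1ip, at 0.23, 0.23 and 0.25. Nearest to Cxcl16 were Relb, a subunit of noncanonical NF-kB, Evl, an actin regulator, and Ccdc141, at 0.14, 0.14 and 0.20. Ccdc141 was under 1 TPM in every control library, so the filter fixed its direction. Cxcr6 lay closest to Lat, an adaptor of the T cell receptor, Klrc1, which encodes the NKG2A receptor, and the checkpoint receptor Pdcd1, at 0.17, 0.18 and 0.20. Lat was at 33.7, 31.8 and 29.1 TPM in LIGHT replicates 1, 2 and 3, against 7.94, 19.6 and 9.10 TPM in control replicates 1, 2 and 3, with the same high control library as Cxcr6. Relb was at 63.2, 55.1 and 54.8 TPM in LIGHT replicates 1, 2 and 3, against 28.4, 27.5 and 24.1 TPM in control replicates 1, 2 and 3, and no control library stood apart. Lat and Relb were picked by distance over these same libraries, so their likeness to Cxcr6 and Cxcl16 follows from that choice. The distance was 1.00 between Cxcl16 and its receptor Cxcr6. Cxcr3 lay 1.89 from Cxcl9 and 1.49 from Cxcl10. The profiles were centred but not scaled, so genes with unlike log2 differences lie apart even where their libraries vary in the same order.

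**Figure D5:**
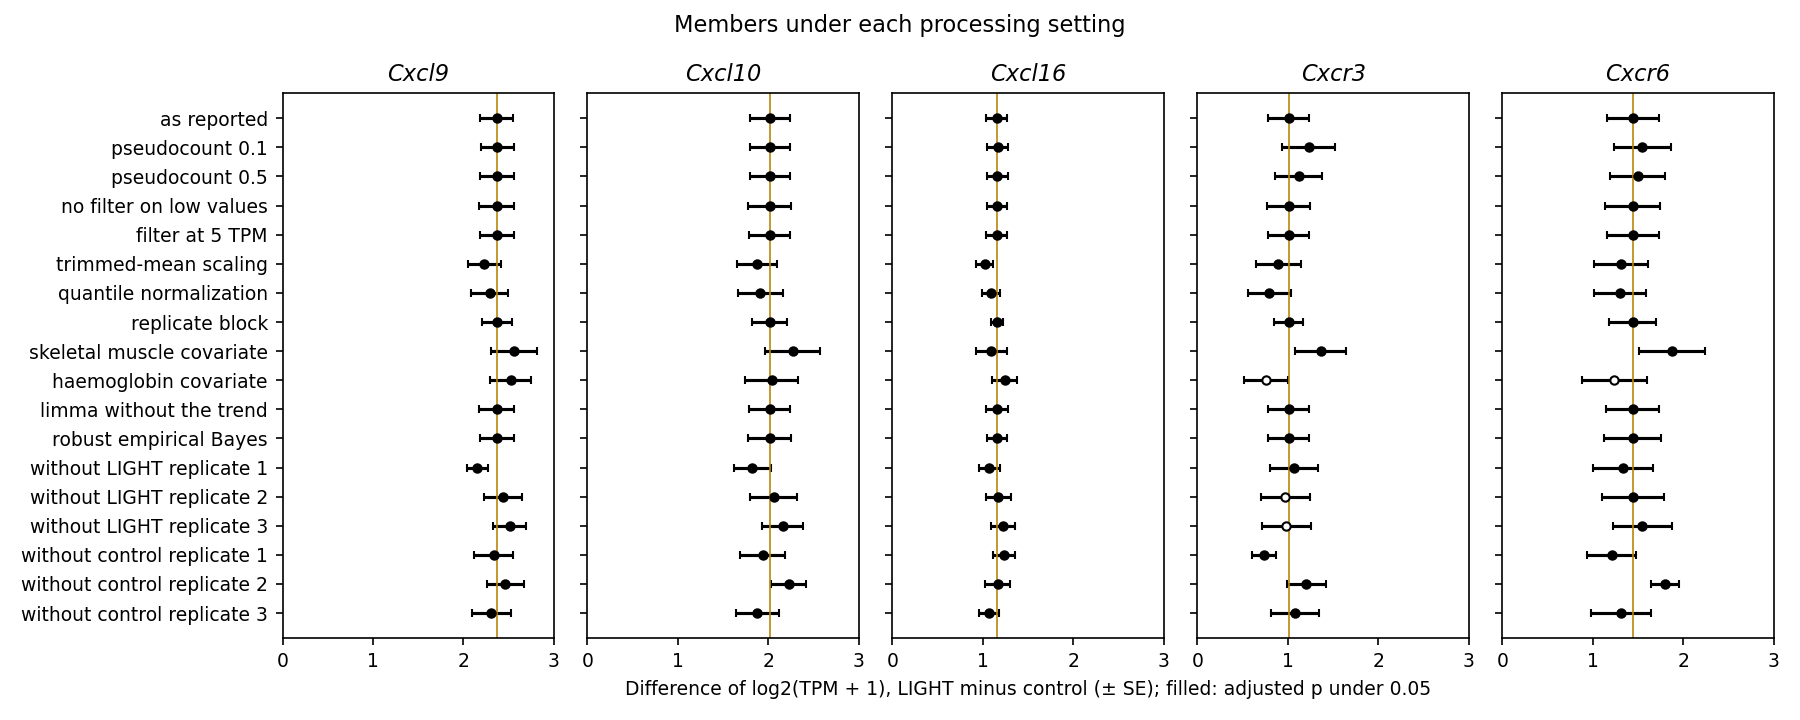
Difference of log2(TPM + 1), LIGHT minus control, with its SE for each gene as reported and under 17 other settings, filled where the adjusted p was under 0.05. Cxcl9, Cxcl10 and Cxcl16 are filled in every row, Cxcr6 is open in 1 row and Cxcr3 in 3 rows, and no point reaches 0.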

How the data were processed

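Per the labels' protocols, total RNA from tumour tissue was depleted of ribosomal RNA before sequencing. HISAT, Bowtie2 and the build GRCm38.p6 are named in the submitters' processing notes. The sources used here do not give the quantifier, annotation, filters or strand. The authors deposited TPM per gene and library, with every library summing to the same total. A gene entered the fit if 3 or more libraries had it at 1 TPM or above. The values were log2-transformed with a pseudocount of 1 and fitted in R 4.3.3 by limma 3.58.1, using a mean-variance trend and Benjamini-Hochberg adjustment, after a test on simulated data. The 5 genes, the gene lists and the tests were chosen with earlier results of these data known. Named genes are the 5, the partner list, Tnfsf14, Ifng, Irf1, Tbx21, up to 3 genes of each list by smallest unadjusted p, the 3 nearest in pattern to each of the 5, and the nearest listed gene on each side; genes that overlap the 5 were added. Some genes under this rule are not reported here, although the list counts include them. No 2 libraries held identical values. Gene positions and overlaps are from GENCODE vM21. Alternatives were other pseudocounts, filters and scalings, each library left out, a replicate block, muscle and haemoglobin covariates, and limma without the trend or with robust moderation. For genes and lists beyond the 5, these alternatives were added after seeing the data. Figures were drawn with matplotlib 3.10.9.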

Additional observations from a re-analysis of the deposited data

How the results depend on the processing

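Each of the 5 genes stayed higher in LIGHT tumours in all 17 other settings, and Cxcl9, Cxcl10 and Cxcl16 stayed past the threshold in all of them (adjusted p at most 0.00945, 0.0187 and 0.0234). Cxcr6 missed it with the haemoglobin covariate (1.24), and Cxcr3 with that covariate (0.76) and without LIGHT replicate 2 or 3 (0.97 and 0.98). With 1 library left out the log2 differences ranged from 2.15 to 2.51 for Cxcl9, 1.82 to 2.22 for Cxcl10, 0.74 to 1.20 for Cxcr3, 1.07 to 1.23 for Cxcl16 and 1.21 to 1.80 for Cxcr6. The 6 within-library differences kept their sign under the pseudocounts, scalings and left-out libraries tried and moved by less than the SD pooled over both groups, though Cxcr3 relative to the CD3 genes ranged from -0.71 to -0.29 and Cxcl9 relative to Cxcl10 from 0.24 to 0.43 with 1 library left out. Over all genes, 2325 were higher and 712 lower. These counts were 1410 and 1813 after quantile normalization, 1637 and 2005 with trimmed-mean scaling, 670 and 102 with the skeletal muscle covariate, and 976 and 207 with the haemoglobin covariate. They ranged from 1145 to 1888 and from 314 to 773 with 1 library left out, where fewer samples entered the fit. Apart from that construction, the cause was not tested. The higher calls were thus a majority as deposited and a minority after either rescaling. With the replicate block the counts were 2325 and 907 and the 5 genes kept their calls. Deviations of same-numbered libraries correlated across genes at 0.37, 0.24 and 0.01, and LIGHT replicate 2 correlated best with control replicate 3, so the numbers were not treated as pairing. TPM gives no depth, so no counting error can be attached to the low values of Cxcr3.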
